A study of Homo sapiens with 8 samples.

Results

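The genes described here encode the nuclear subunits of the 5 complexes of oxidative phosphorylation, followed in human colon cancer cells grown as spheres or labelled as expressing Snail. They were taken by name: every protein-coding gene whose symbol starts with NDUFA, NDUFB, NDUFC, NDUFS, NDUFV, UQCR, COX4I, COX5, COX6, COX7, COX8 or ATP5, with the succinate dehydrogenase genes and CYC1, and without pseudogenes or NDUFAF assembly factors. This gave 78 of the 19775 genes of the arrays: 33 of complex I, 3 of complex II, 7 of complex III, 17 of complex IV and 18 of complex V. The 18 include ATP5IF1, which encodes an inhibitor of complex V and is counted here with the subunit genes. They were read by 152 probe sets, and each gene was represented by its brightest one. SDHB and UQCRFS1 were not analysed here, and neither were the 13 subunits that mitochondrial DNA encodes.

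The electron transport chain sits in the inner mitochondrial membrane. Complex I takes electrons from NADH and complex II from succinate. Ubiquinone carries them to complex III and cytochrome c to complex IV, which passes them to oxygen. Complexes I, III and IV pump protons as they do so, and complex V, the ATP synthase, uses the proton gradient to make ATP. Nearly all subunits of these complexes are encoded in the nucleus, while a few of the proton-pumping core are made inside the mitochondrion, so that the 2 genomes supply parts of the same machine. Colon cancer cells use both this pathway and glycolysis for their energy.

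Total RNA had been hybridised to 8 Affymetrix arrays, 2 in each of 4 groups. The first group was HT29 grown as first spheres without serum, in a DMEM-F12 medium to which N2 supplement and the growth factors bFGF and EGF (10 ng/ml of each) had been added, and the second was parental HT29 in DMEM with 10% fetal bovine serum. The third was a stable SW480 line labelled as expressing Snail, and the fourth a stable SW480 line with the empty vector, both in high-glucose DMEM with 10% serum. HT29 and SW480 are established lines from human colorectal adenocarcinomas, and Snail, the product of SNAI1, is a repressor known for its part in epithelial to mesenchymal transition. Spheres therefore differed from parental cells in serum, growth factors, base medium and growth form at once, and SW480 cells from HT29 cells in line, vector and medium, and none of these can be told apart. The labels do not say whether a group's arrays came from different cultures, so p-values measure only the spread between arrays, which may be technical.

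SNAI1 went against its label: its log2 value was 6.32 and 6.38 in SW480 cells labelled Snail, against 6.36 and 6.34 in SW480 vector cells, a change of 0.00 ± 0.15. Whether that probe set reads a transgene was not tested, and all statements on this line below concern the arrays labelled Snail. In HT29 spheres SNAI1 was 6.93 and 7.21, against 5.87 and 6.15 in parental cells (log2 change 1.07 ± 0.15, limma adjusted p = 0.00032). The colon epithelial markers EPCAM, KRT8 and KRT18 lay above 11.7 on every array, while LGALS4 and KRT20 lay between 4.11 and 5.05 in SW480 cells. CDH17 was low in SW480 and in parental HT29 cells alike, at 9.92 and 9.73 in spheres against 5.08 and 5.09 in parental cells, and CDX2 was higher in SW480 vector cells (mean 7.75) than in parental HT29 (mean 6.65). Of the 10 epithelial markers, 3 were called higher in spheres, CDH17, KRT20 and CDX1, and 1 lower, VIL1. Paired arrays of a group correlated at 0.995 over all genes, and at 0.991 in parental HT29, whose 2 arrays differed at least 2-fold at 200 genes against 10 to 19 genes in the other groups. Values are log2 expression from robust multi-array averaging (RMA), and changes are differences of log2 values ± SE from limma. A gene is called where limma's p, adjusted over all 19775 genes by Benjamini-Hochberg, is under 0.05.

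The bases just before the annotated start are shown for 8 subunit genes called in the sphere comparison below. NDUFV1 and NDUFB11 had the largest falls and NDUFV3 the only rise. The 5 others fell, and their stretch holds a match to a motif of a factor known to regulate respiratory genes. The ATP5PD call is a weak one, as given below. Sequences are RefSeq's, build GRCh38.p14, 5′ to 3′ on the gene's strand, each 120 bases long and ending 1 base before the start. Capitals mark a match to the NRF1 motif (GCGCA, any base, then GCGC) or to the GABP motif CCGGAAGT on either strand, and a sequence without capitals has none.
NDUFV1, chr11:67606816-67606935, plus strand: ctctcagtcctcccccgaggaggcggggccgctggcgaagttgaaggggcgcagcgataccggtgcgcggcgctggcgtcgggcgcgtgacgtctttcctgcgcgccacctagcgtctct
NDUFB11, chrX:47144703-47144822, minus strand: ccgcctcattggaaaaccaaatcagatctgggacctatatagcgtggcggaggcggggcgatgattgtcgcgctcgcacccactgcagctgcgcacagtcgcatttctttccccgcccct
NDUFA9, chr12:4648994-4649113, plus strand: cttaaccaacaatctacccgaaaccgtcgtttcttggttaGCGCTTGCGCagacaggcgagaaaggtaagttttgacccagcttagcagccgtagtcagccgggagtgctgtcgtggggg
NDUFA11, chr19:5903791-5903910, minus strand: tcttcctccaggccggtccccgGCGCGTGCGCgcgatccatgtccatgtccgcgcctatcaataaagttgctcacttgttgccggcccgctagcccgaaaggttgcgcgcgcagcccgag
NDUFA13, chr19:19516105-19516224, plus strand: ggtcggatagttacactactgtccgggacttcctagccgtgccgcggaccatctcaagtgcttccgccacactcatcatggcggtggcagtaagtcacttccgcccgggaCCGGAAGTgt
ATP5PO, chr21:33915805-33915924, minus strand: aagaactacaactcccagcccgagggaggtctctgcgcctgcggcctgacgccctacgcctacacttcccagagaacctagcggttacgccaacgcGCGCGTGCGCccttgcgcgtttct
ATP5PD, chr17:75046970-75047089, minus strand: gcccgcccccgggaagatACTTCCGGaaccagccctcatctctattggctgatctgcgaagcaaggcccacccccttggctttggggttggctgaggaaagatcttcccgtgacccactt
NDUFV3, chr21:42893189-42893308, plus strand: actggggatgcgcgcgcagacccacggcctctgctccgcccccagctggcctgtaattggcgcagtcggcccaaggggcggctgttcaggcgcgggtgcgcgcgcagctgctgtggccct

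A RefSeq promoter window, from 250 bases before to 50 after the start, was held for 66 of the 78 subunit genes. NRF1, named for nuclear respiratory factor 1, and GABP, also called nuclear respiratory factor 2, bind the promoters of many respiratory genes. An exact match to the NRF1 motif on either strand was found in 24.2% of the 66 windows, against 8.78% of the 15382 windows of all genes of the arrays and 6.28% of all 27305 windows. CCGGAAGT was found in 13.6% of the 66, against 6.25% of the arrays' genes. The YY1 motif AAGATGGCG was found in 10.6%, against 2.76%, and the ERRA motif TCAAGGTCA in 1.52%, against 0.267%. Of the 18 subunit genes called lower in spheres, 3 held the NRF1 motif (16.7%), against 13 of the 48 others (27.1%), a lower share among the genes that fell. The GABP motif was in 2 of the 18 (11.1%), against 7 of the 48 others (14.6%), and the YY1 motif in 3 of the 18 (16.7%), against 4 of the 48 (8.33%), so the YY1 share ran the other way. These differences were not tested and rest on few matches. Neighbouring motifs can overlap, and a match describes letters in a window and is no sign of binding, nor is a missing match a sign of none.

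HT29 spheres had less mRNA of 11 complex I, 5 ATP synthase and 2 complex IV genes than parental cells, with the inhibitor gene ATP5IF1 among the 5. The largest falls were in NDUFV1 and NDUFB11, each near 2-fold lower, while most subunit genes did not pass the test. Of the 78 subunit genes, 18 were called lower and 1, NDUFV3, was called higher, together 24.4%, where 31.4% of all genes were called. The 18 are 23.1% of the subunit genes, where 19.0% of all genes were called lower. The 1 is 1.28%, where 12.4% of all genes were called higher. Dim genes count among all genes, and the shares rise without them. With the dimmest 40% of genes dropped, 24 subunit genes were lower, where 31.5% of the genes kept were. At the same setting 3 were higher, where 19.1% of the genes kept were. The count of 18 is thus not read as an excess. The median log2 change of the 78 genes was -0.13, against 0.04 over all genes. No subunit gene changed 2-fold, as 10.2% of all genes did. In bulk RNA, fewer cells of a kind and less RNA per cell cannot be told apart.

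These calls shift with the scaling of the arrays. Subtracting each array's median over all genes moves every sphere change by 0.12 upwards. The 78 genes then split into 4 higher and 13 lower, where 20.1% of all genes were called higher and 15.5% lower. One array also weighed heavily: without sphere replicate 1 the count of lower subunit genes fell to 8, while the share of all genes called lower fell to 13.4%. Those 8 were NDUFV1, NDUFB11, NDUFA5, NDUFA10, NDUFS6, ATP5F1A, ATP5PO and COX7A2L.

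**Figure D1:**
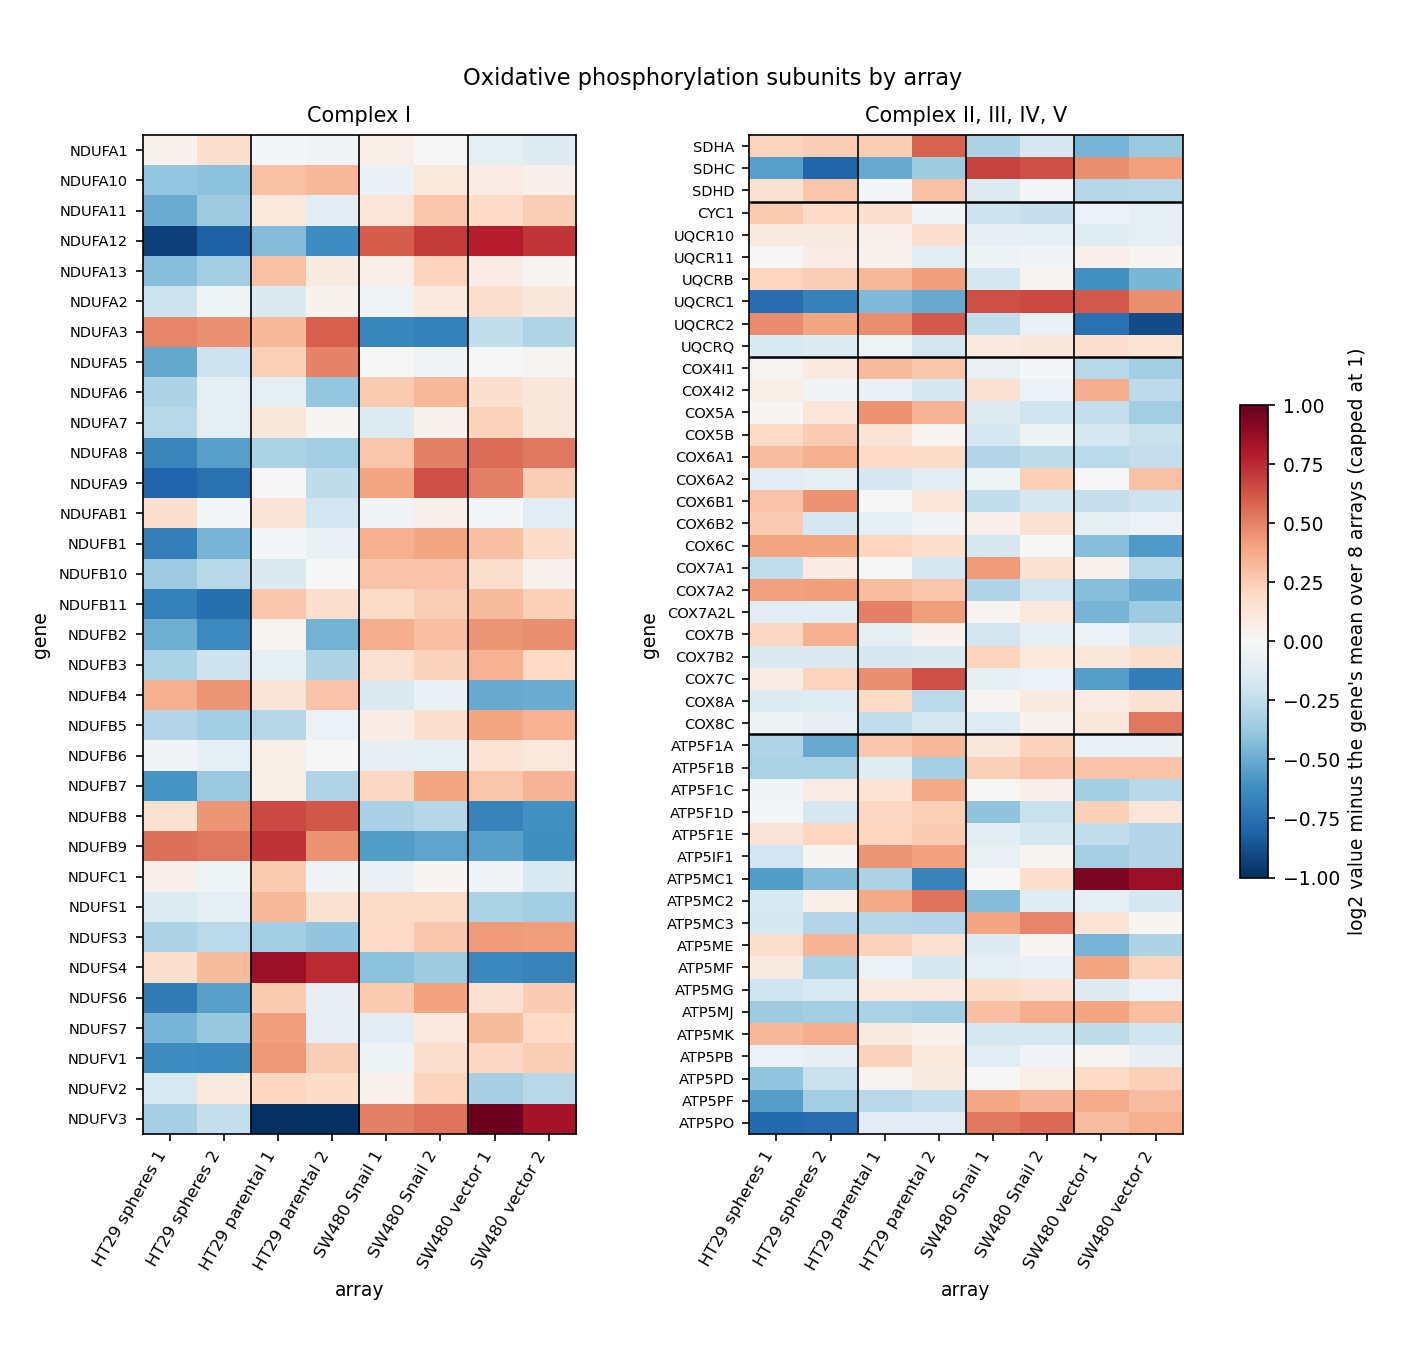
Log2 value of each of the 78 subunit genes on each of the 8 arrays, minus the gene's mean over the arrays, with genes grouped by complex; red is above and blue below the mean, and the colour is capped at 1 either way. Complex I genes such as NDUFV1, NDUFB11 and NDUFS6 are blue on both sphere arrays, and NDUFV3 is deep blue on both parental HT29 arrays.

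By complex, 16 of the 18 falls lay in complexes I and V and 2 in complex IV. Complex I had 11 of 33 genes lower (33.3%, where 19.0% of all genes were) and 1 higher (3.03%, where 12.4% were), with a median change of -0.26. Both sphere arrays lay below both parental arrays for 22 of the 33 complex I genes (66.7%), where 30.5% of all genes did so, and above them for 4, where 32.4% of all genes did. With each array's median subtracted, 9 complex I genes were lower (27.3%, where 15.5% of all genes were) and 1 higher. Without the dimmest 40% of genes, 14 complex I genes were lower (42.4%, where 31.5% of the genes kept were). Without sphere replicate 1, 5 were lower, a share of 15.2% that is near the 13.4% of all genes. Complex V had 5 of 18 lower (27.8%, against the same 19.0% of all genes), none higher, and a median of -0.21. Complex IV had 2 of 17 lower (11.8%), none higher, and a median of 0.11. Read by the brightest probe sets, 0 of 3 complex II and 0 of 7 complex III genes were called by limma. In either complex 0 had an unadjusted p under 0.05. The median level of the complex I genes was 10.48 and 10.53 on the sphere arrays, against 10.89 and 10.82 on the parental arrays. For complex V it was 11.56 and 11.55 on the sphere arrays, against 11.72 and 11.8 on the parental arrays. No test compared one complex with another.

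**Figure D2:**
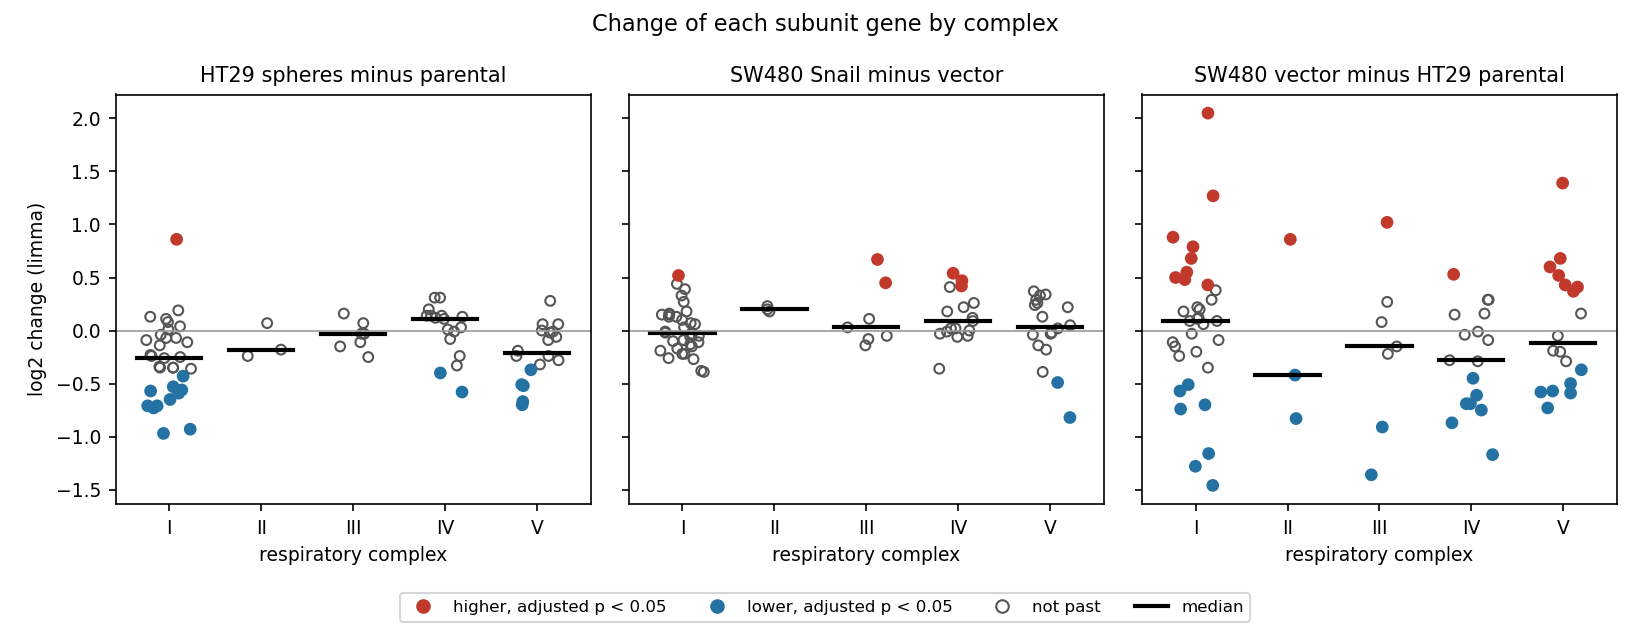
Log2 change of each subunit gene, as estimated by limma, by respiratory complex in the 3 comparisons; filled points passed an adjusted p of 0.05 (red higher, blue lower), open points did not, and bars are medians. In spheres the filled points lie below 0 in complexes I, IV and V except NDUFV3 at 0.86, and the spread is widest between SW480 vector and parental HT29 cells.

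Complex I is built from an arm that protrudes into the matrix and an arm in the membrane. The tip of the matrix arm, the N module, oxidises NADH. Of its 8 measured genes 3 fell in spheres (37.5%, where 19.0% of all genes were lower). NDUFV1 encodes the subunit that binds NADH and the flavin. It had log2 values of 10.29 and 10.28 in spheres, against 11.35 and 11.16 in parental cells. Its sphere arrays were the lowest of all 8 and overlapped no other group. The change was -0.97 ± 0.13, or 1.96-fold lower (limma adjusted p = 0.00031), and NDUFV1 kept its call in all 16 alternative analyses that set no fold threshold, which are the 16 counted below as well. Its fall shrank to -0.44 where its dim second probe set was averaged in.

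NDUFS6, a zinc-binding accessory subunit of the N module, had 11.06 and 11.22 in spheres, against 12.02 and 11.68 in parental cells. Both sphere arrays lay below all other arrays, although the parental arrays were 0.34 apart. The change was -0.71 ± 0.15 (limma adjusted p = 0.0042). NDUFS4, an accessory subunit whose loss causes Leigh syndrome, had 9.65 and 9.80 in spheres, against 10.35 and 10.23 in parental cells, and fell by 0.56 on the log2 scale (limma adjusted p = 0.0058). Unlike NDUFV1 and NDUFS6, its sphere arrays were above those of both SW480 lines. NDUFS1, the largest iron-sulphur subunit, was at 9.75 and 9.80 in spheres and 10.22 and 10.04 in parental cells. Its change of -0.35 did not pass. In a fit over all probe sets, 2 dimmer ones of its 5 were called lower, at -0.98 and -1.59. NDUFV2, another iron-sulphur subunit, changed by -0.23, NDUFA12 by -0.35 and NDUFA2 by -0.07, all short of the threshold.

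NDUFV3 was the exception among the 78 genes. It encodes a small accessory subunit next to NDUFV1 that is known in a long and a short isoform, and the arrays' values do not say which of them a probe set reads. Its log2 values were 9.42 and 9.51 in spheres, against 8.63 and 8.58 in parental cells. The sphere arrays stood between the parental arrays and all 4 SW480 arrays. The rise was 0.86 ± 0.12, or 1.82-fold (limma adjusted p = 0.00039), and the call held in all 16 alternative analyses. A second, dimmer NDUFV3 probe set changed by -0.05 in a fit over all probe sets and was not called.

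The Q module passes electrons to ubiquinone, and 3 of its 6 measured genes fell (50%, where 19.0% of all genes were lower). NDUFA5, an accessory subunit of this module, had 9.18 and 9.49 in spheres, against 9.93 and 10.19 in parental cells, a change of -0.73 ± 0.15 (limma adjusted p = 0.0035). The arrays of the 2 groups were well apart, and the 4 SW480 arrays, between 9.66 and 9.72, lay between them. NDUFA9, which helps anchor the matrix arm, changed by -0.65 (limma adjusted p = 0.0085). NDUFS7, which holds the last iron-sulphur cluster before ubiquinone, changed by -0.59 (limma adjusted p = 0.023), with parental arrays 0.50 apart at 9.77 and 9.27. NDUFS3, a core subunit of the same module, did not pass: it was at 10.32 and 10.36 in spheres and 10.29 and 10.24 in parental cells.

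In the membrane arm, 3 of 7 genes of the proximal part (42.9%) and 2 of 12 of the distal part (16.7%) fell. The distal share is near the 19.0% of all genes that were lower. NDUFB11, an accessory subunit of the distal part encoded on the X chromosome, had 10.33 and 10.25 in spheres, against 11.27 and 11.17 in parental cells. All 6 other arrays of the study lay between 11.17 and 11.32, so the sphere arrays stood alone. The change was -0.93 ± 0.12, or 1.91-fold lower (limma adjusted p = 0.00023), and held in all 16 alternatives. NDUFB1, also distal, changed by -0.53 (limma adjusted p = 0.0096).

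NDUFA10, an accessory subunit related to nucleoside kinases, had 9.69 and 9.67 in spheres, against 10.37 and 10.41 in parental cells, a change of -0.71 ± 0.12 (limma adjusted p = 0.0013). Its probe sets disagreed: of 5, the brightest fell and one near 5 to 6 on the log2 scale was called higher by 1.44. The mean of the 5 changed by 0.08 and was not called. NDUFA13, also known as GRIM-19, changed by -0.57 (limma adjusted p = 0.007), and NDUFA11 by -0.43 (limma adjusted p = 0.033).

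In complex II, SDHA, the subunit that oxidises succinate, was at 11.12 and 11.15 in spheres and 11.15 and 11.49 in parental cells. SDHC and SDHD, which anchor it in the membrane, changed by -0.24 and 0.07, and the groups overlapped for SDHD. In a fit over all probe sets, 1 dimmer one of SDHC's 7 was called lower, at -1.0. In complex III no gene passed with its brightest probe set, and the 7 changes lay between -0.25 for UQCRC1 and 0.16 for CYC1. In a fit over all probe sets, dimmer ones were called lower for UQCR10 (1 of 2, at -1.07) and UQCRB (2 of 4, at -0.67 and -0.83). A dim UQCRC2 probe set was called higher, at 0.56. UQCRC1 and UQCRC2 are the core proteins of complex III and CYC1 is cytochrome c1. UQCRC2 was at 11.29 and 11.21 in spheres and 11.28 and 11.43 in parental cells, which overlap. UQCRH was read only by a probe set shared with its near copy UQCRHL, at 12.01 and 12.18 in spheres and 12.62 and 12.54 in parental cells. It was left out of the tests, as were NDUFS5, NDUFS8 and NDUFC2, because each is named only by probe sets that also name another gene.

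The 11 common subunits of complex IV did not fall as a group, with a median change of 0.12. Of them 2 were called lower (18.2%, near the 19.0% of all genes). COX4I1, the largest nuclear-encoded subunit, changed by -0.24, COX5A by -0.33 and COX5B by 0.13. None of these 3 passed. COX6B1 changed by 0.31 ± 0.13 and COX7B by 0.31 ± 0.13, short of the threshold. COX7B had a second, dim probe set, at 4.41 in spheres against 6.02 in parental cells, which was called lower by 1.61, and the mean of both changed by -0.65.

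The complex IV genes that fell were COX7A2L and COX7C. COX7A2L, a relative of COX7A2 known for joining complexes III and IV into supercomplexes, had 10.64 and 10.64 in spheres, against 11.26 and 11.17 in parental cells. The change was -0.58 ± 0.12, or 1.49-fold lower (limma adjusted p = 0.0043), held in all 16 alternatives. COX7C, a small membrane subunit, had 12.37 and 12.52 in spheres, against 12.76 and 12.94 in parental cells, a change of -0.40 ± 0.13 (limma adjusted p = 0.04). Its call was lost in 11 of 16 alternatives, including the loss of either sphere array.

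The 6 isoforms of complex IV subunits that are known mainly from muscle, testis or lung gave no call in spheres, and 0 had an unadjusted p under 0.05. COX6A2, COX7A1, COX7B2 and COX8C lay below the median of every array. COX4I2, the isoform linked to low oxygen, was at 6.90 and 6.80 in spheres and 6.76 and 6.67 in parental cells. COX6B2 was at 6.17 and 5.74 in spheres and 5.82 and 5.88 in parental cells, which overlap. Of the 4 muscle markers measured, 0 were called higher and MB, which encodes myoglobin, was called lower. Their summed level was 7.65 and 7.61 in spheres and 7.72 and 7.80 in parental cells.

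A far larger change lay just outside the list, in genes of the COXFA4 family. COXFA4, formerly NDUFA4, is a complex IV subunit once assigned to complex I. It was at 11.46 and 11.44 in spheres and 11.82 and 11.69 in parental cells, a change of -0.30 that did not pass (limma adjusted p = 0.083). COXFA4L2, formerly NDUFA4L2 and known as a target of the hypoxia-inducible factor, had 10.92 and 11.11 in spheres, against 6.74 and 7.52 in parental cells. That is a rise of 3.88 ± 0.21, or 14.8-fold (limma adjusted p = 1.2e-06). COXFA4L3, named here after its value was seen, had 10.03 and 10.17 in spheres, against 5.26 and 5.89 in parental cells, a rise of 4.52 ± 0.19 (limma adjusted p = 3.1e-07). For both paralogues the sphere arrays stood far above all other arrays, and neither gene was called in SW480 cells labelled Snail, where COXFA4L2 changed by -0.30 and COXFA4L3 by 0.15. Levels of different genes cannot be set against each other on these arrays, so whether a paralogue outnumbered COXFA4 is not known.

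**Figure D3:**
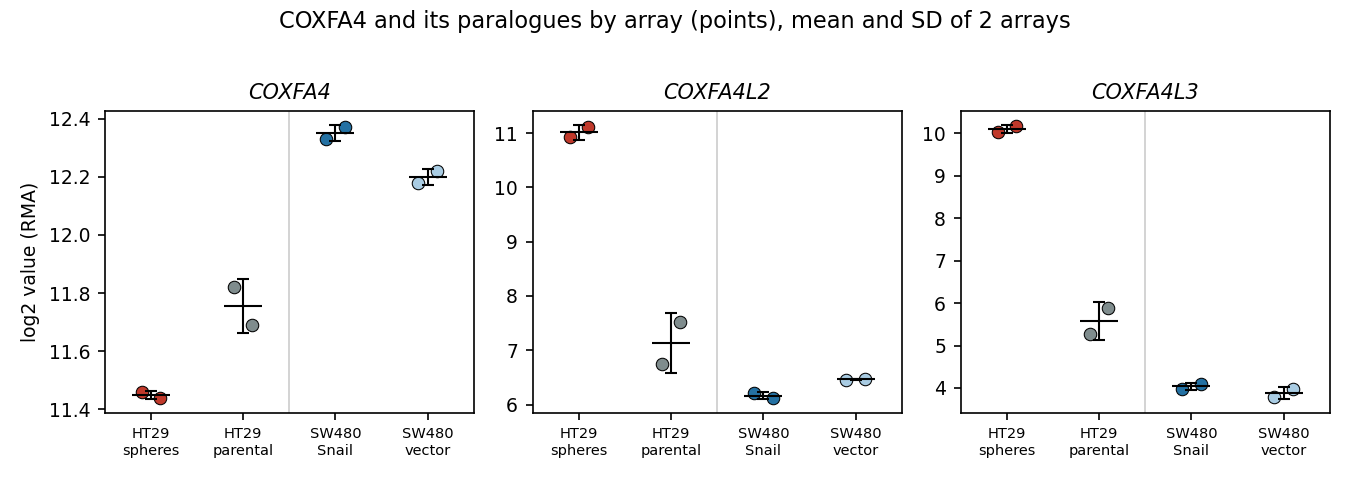
Log2 value of COXFA4, COXFA4L2 and COXFA4L3 on each array (points), with the mean and SD of the 2 arrays of a group; each panel has its own axis, which does not start at 0. Both paralogues are near 10 to 11 in HT29 spheres and below 8 in all other groups, while all COXFA4 values lie between 11.44 and 12.37.

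In the ATP synthase, 1 of 5 genes of the catalytic F1 head fell in spheres (20%, near the 19.0% of all genes). ATP5F1A, the alpha subunit, had 11.81 and 11.60 in spheres, against 12.38 and 12.44 in parental cells. The sphere arrays were the lowest of all 8, and the change was -0.70 ± 0.13, or 1.63-fold lower (limma adjusted p = 0.002). Averaging in a probe set near 5 took its change to -0.29 and ended the call. ATP5F1B, the beta subunit that holds the catalytic sites, was at 12.04 and 12.04 in spheres and 12.23 and 12.02 in parental cells, which overlap. ATP5F1C, the gamma subunit of the rotor, changed by -0.24 and did not pass.

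Of the 4 genes of the peripheral stalk, which holds the head still, 2 fell (50%, where 19.0% of all genes were lower). ATP5PO, the subunit that joins stalk and head, had 11.07 and 11.08 in spheres, against 11.74 and 11.74 in parental cells. The arrays of each HT29 group were within 0.01 of each other, and the sphere arrays were the lowest of all 8. The change was -0.67 ± 0.12, or 1.59-fold lower (limma adjusted p = 0.0015), held in all 16 alternatives. ATP5PD changed by -0.37 (limma adjusted p = 0.045), while ATP5PB and ATP5PF changed by -0.24 and -0.19 without passing. The ATP5PD call was lost whichever single array was left out. In a fit over all probe sets, the same ATP5PD probe set did not pass (limma adjusted p = 0.062).

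ATP5MC1, ATP5MC2 and ATP5MC3 encode the same mature c subunit of the rotor ring. Only ATP5MC2 was called among the 3 in spheres, with 11.15 and 11.37 there, against 11.68 and 11.85 in parental cells (change -0.51, limma adjusted p = 0.025). ATP5IF1, the inhibitor that stops the enzyme from running backwards, had 10.08 and 10.28 in spheres, against 10.71 and 10.68 in parental cells. Its change was -0.52 ± 0.13 (limma adjusted p = 0.011), which was lost without sphere replicate 1. ATP5MK, a small membrane subunit, had 12.86 and 12.90 in spheres and 12.63 and 12.57 in parental cells, a change of 0.28 that did not pass.

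**Figure D4:**
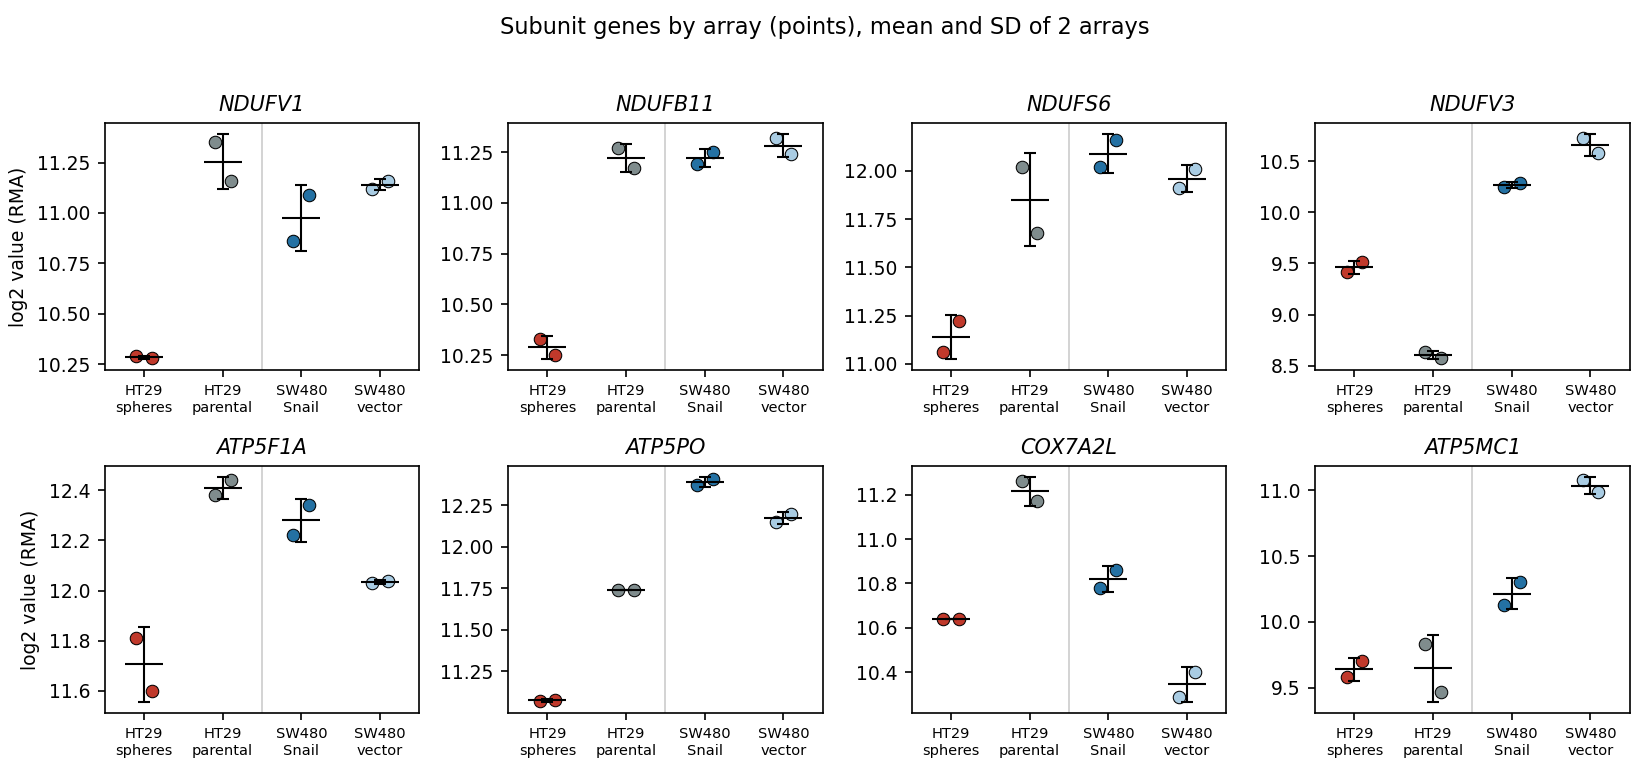
Log2 value of 8 subunit genes on each array (points), with the mean and SD of the 2 arrays of a group; each panel has its own axis, which does not start at 0. NDUFV1, NDUFB11, NDUFS6, ATP5F1A and ATP5PO are lowest in spheres, NDUFV3 is lowest in parental HT29, and ATP5MC1 is highest in SW480 vector cells.

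Markers of growth moved with the sphere samples. All 6 markers of dividing cells were called lower in spheres, with a median change of -1.29, and their summed level was 11.58 and 11.89 in spheres, against 13.44 and 13.05 in parental cells. The 3′ to 5′ difference of ACTB, a sign of RNA integrity, was 0.72 and 0.95 in spheres, against 0.66 and 0.59 in parental cells. The same difference for GAPDH was 0.14 and 0.21 in spheres and 0.24 and 0.15 in parental cells, which overlap. The part of the growth markers or of the ACTB difference in the changes of the subunit genes was not tested. Of the markers of leukocytes, endothelium, fibroblasts and smooth muscle, 3 of 10 were called higher in spheres. LUM, a matrix gene of fibroblasts, had the largest of these changes, at 8.45 and 8.41 in spheres against 4.65 and 4.65 in parental cells.

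Genes that serve the complexes were followed as lists. The shares to read their counts in spheres against are 19.0% of all genes lower and 12.4% higher. Without the dimmest 40% of genes, 31.5% of the genes kept were lower and 19.1% higher. The lists hold few dim genes, so a list share below these higher values is not read as an excess. Of 20 complex I assembly genes, 8 were called lower (40%) and 2 higher in spheres. NUBPL, which delivers iron-sulphur clusters to complex I, fell by 1.5 on the log2 scale (limma adjusted p = 5.4e-05), and NDUFAF4 had a rise of 1.07 (limma adjusted p = 0.0011). Of only 5 complex V assembly genes, 3 were lower and 1 higher, with FMC1 lower by 1.51 (limma adjusted p = 4.7e-05). Of 26 complex IV assembly genes, 5 were lower (19.2%, near the share of all genes) and 2 higher, COX15, which makes heme A, among the lower ones at -1.05 and SCO2, a copper chaperone, among the higher ones at 0.99. Of 12 complex II and III assembly genes, 3 were lower and 3 higher (25% each).

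Of 17 genes of ubiquinone synthesis and other electron carriers, 8 were lower (47.1%, where 19.0% of all genes were) and none higher. COQ2 and PDSS2, both needed to build ubiquinone, changed by -1.74 and -1.33 (limma adjusted p = 0.0007 and 4.4e-05), and ETFB, of the electron transfer flavoprotein, by -1.06. CYCS, which encodes cytochrome c, changed by 0.26 and did not pass. Of 12 genes of the citric acid cycle, 4 were lower (33.3%) and 1 higher, with IDH2 lower by 1.04 and OGDH higher by 0.53. Of 15 genes of pyruvate entry, 4 were lower (26.7%) and 3 higher (20%, where 12.4% of all genes were). PDK1, the kinase that shuts off pyruvate dehydrogenase, had 1.15 more in spheres (limma adjusted p = 0.00042), and LDHA, which turns pyruvate into lactate, 1.06 more (limma adjusted p = 8.2e-05). DLAT and PDHB, subunits of pyruvate dehydrogenase, were lower by 0.76 and 0.59 on the log2 scale.

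Of 18 genes of mitochondrial import and mass, 5 were lower (27.8%, where 19.0% of all genes were) and 1 higher, with TOMM20, an import receptor, lower by 0.90 and VDAC1, the outer membrane channel, higher by 0.56. Of 19 regulators of mitochondrial biogenesis, 5 were higher (26.3%, where 12.4% of all genes were) and 3 lower (15.8%). TFAM, the factor that packs and transcribes mitochondrial DNA, changed by -0.57 (limma adjusted p = 0.037). The coactivator gene PPARGC1A changed by -0.46 (limma adjusted p = 0.062), PPARGC1B by 0.28, NRF1 by 0.10 and ESRRA by 0.24, none of them past the threshold. Of 10 oxygen-regulated mitochondrial genes, 3 were higher (30%), BNIP3L, PDK1 and MXI1, and 2 lower (20%).

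**Figure D5:**
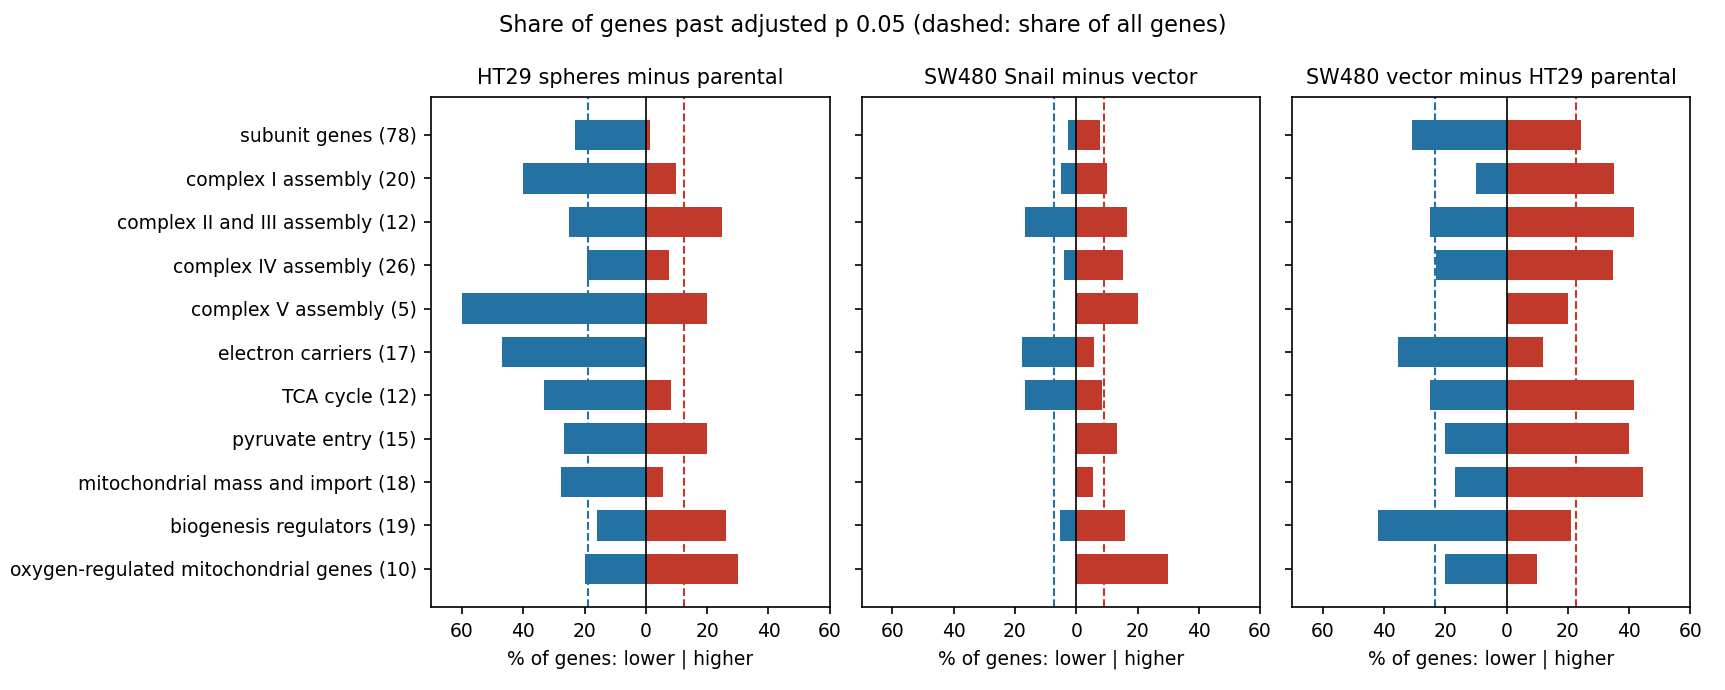
Percent of genes called higher (right of 0, red) and lower (left of 0, blue) in each comparison, for the 78 subunit genes and 10 lists of genes that serve the complexes, with the number measured in brackets; dashed lines are the shares over all genes. In spheres the lists of electron carriers, complex I assembly and complex V assembly reach furthest to the left, and few bars are long in the Snail comparison.

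In SW480 cells labelled Snail, 8 subunit genes were called against vector cells: 6 higher and 2 lower. That is 10.3% of the 78, where 16.2% of all genes were called (8.91% higher and 7.34% lower), and the median change was 0.03, against 0.01 over all genes. With any one of the 4 SW480 arrays left out, 1 or 2 of the 8 calls remained. The count also moved upwards: trended robust eBayes gave 13 higher and 4 lower, where 10.5% and 8.52% of all genes were called, and array weights gave 10 higher and 4 lower, where 12.6% and 10.9% were. Complex I had 1 gene called, complex III 2, complex IV 3 and complex V 2. Both Snail arrays lay above both vector arrays for 35 of the 78 genes and below them for 21, where 31.2% and 29.2% of all genes did so. Of the 8, 0 changed 2-fold, as 3.32% of all genes did.

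ATP5MC1 had the largest change of the 8, and its call was the only one of the 8 that held in all 16 alternatives. It was at 10.13 and 10.30 in cells labelled Snail, against 11.08 and 10.99 in vector cells. The groups were well apart, and both lay above all HT29 arrays, which were between 9.47 and 9.83. The change was -0.82 ± 0.15, or 1.77-fold lower (limma adjusted p = 0.0047). ATP5F1D, the delta subunit of the F1 head, was at 9.5 and 9.68 in cells labelled Snail, against 10.14 and 10.02 in vector cells (change -0.49, limma adjusted p = 0.027).

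Among the higher genes, UQCRC2 was at 10.57 and 10.75 in cells labelled Snail, against 10.07 and 9.92 in vector cells, a change of 0.67 ± 0.13 (limma adjusted p = 0.0074). Its dimmest probe set, near 5, was called the other way, at -0.55. NDUFS1 was at 10.08 and 10.08 in cells labelled Snail, against 9.57 and 9.55 in vector cells, a change of 0.52 ± 0.12 (limma adjusted p = 0.017). The mean of its 5 probe sets changed by -0.11. UQCRB, a small complex III subunit, changed by 0.45 (limma adjusted p = 0.04) and COX6C by 0.42 (limma adjusted p = 0.046). COX7C was at 12.20 and 12.24 in cells labelled Snail, against 11.75 and 11.61 in vector cells (0.54 ± 0.13, limma adjusted p = 0.02). All 3 COX7C probe sets were called higher. COX7A2L was at 10.78 and 10.86 in cells labelled Snail, against 10.29 and 10.40 in vector cells (0.47 ± 0.12, limma adjusted p = 0.025).

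Of the core subunits of complex I, NDUFV1 and NDUFS3 did not pass: NDUFV1 changed by -0.17 and NDUFS3 by -0.19. Nor did any succinate dehydrogenase gene, with changes of 0.18 to 0.23 and every Snail array above every vector array. At an unadjusted p under 0.05, 0 of these 3 counted. In a fit over all probe sets, 1 dimmer one of SDHC's 7 was called higher, at 1.17. Of the dividing-cell markers, 0 of 6 were called by limma in this comparison, and 1 had an unadjusted p under 0.05, with a summed level of 13.54 and 13.65 in cells labelled Snail, against 13.67 and 13.61 in vector cells. PDK1 was higher by 0.83 (limma adjusted p = 0.0074) and PPARGC1B by 0.78 (limma adjusted p = 0.0095). In this comparison 8.91% of all genes were called higher and 7.34% lower. Without the dimmest 40% of genes, 16.2% of the genes kept were higher and 12.7% lower. Of the service lists, complex I assembly had 2 of 20 genes higher (10%) and 1 lower (5%). Electron carriers had 1 of 17 higher (5.88%) and 3 lower (17.6%). Oxygen-regulated mitochondrial genes had 3 of 10 higher (30%) and 0 lower, and complex II and III assembly 2 of 12 each way (16.7%). Biogenesis regulators had 3 of 19 higher (15.8%) and 1 lower, and complex IV assembly 4 of 26 higher (15.4%) and 1 lower. Each other list had 1 or 2 genes higher and 0 to 2 lower. These shares were not tested and rest on few genes.

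The test of the difference between the sphere change and the Snail change asks whether a gene responded unequally. It called 23 subunit genes (29.5%), where 27.5% of all genes were called. For 21 of the 23 the sphere change lay below the Snail change (26.9%, where 16.9% of all genes were called so). For the other 2, NDUFV3 and ATP5MC1, it lay above. Such a call need not mean a change in spheres: ATP5MC1 changed by -0.01 there and by -0.82 in cells labelled Snail. UQCRC2 changed by -0.11 in spheres and by 0.67 in cells labelled Snail. The difference was 2-fold or more for NDUFV3 and COX7A2L, where 14.3% of all genes had one. Without the dimmest 40% of genes the 21 became 23, where 28.6% of the genes kept were called so. The count of 21 is thus not read as an excess. Complex I held 12 of the 21, which is 36.4% of its genes, where 16.9% of all genes were called so. It held 12 again without the dimmest 40% of genes (36.4%, where 28.6% of the genes kept were). COX7A2L and COX7C were the only subunit genes called in both comparisons, lower in spheres and higher in cells labelled Snail. The difference of the changes was -1.05 ± 0.17 for COX7A2L (limma adjusted p = 0.0013) and -0.94 ± 0.19 for COX7C (limma adjusted p = 0.0038). Across the 78 genes the 2 sets of changes had a Pearson correlation of -0.12, and across all genes of -0.02, a description only, because genes in one sample depend on each other. The count of 23 fell to 15 with the arrays' medians subtracted, and to 13, 11, 15 and 12 without sphere replicate 1, Snail replicate 2, vector replicate 1 and vector replicate 2.

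More subunit genes were called between the lines than within either line. Of the 78 genes, 43 were called between SW480 vector and parental HT29 cells: 19 higher and 24 lower in SW480. That is 55.1%, where 46.1% of all genes were called (22.6% higher, 23.5% lower). Without the dimmest 40% of genes, 18 subunit genes were higher and 27 lower, where 28.7% and 36.3% of the genes kept were. The count of 43 is thus not read as an excess. A change of 2-fold or more with a call was seen in 9 subunit genes (4 higher and 5 lower), where 18.9% of all genes had one. This comparison shares the vector arrays with the Snail comparison and the parental arrays with the sphere comparison. Changes in them are therefore not independent and are only set side by side. The 3′ to 5′ difference of ACTB was 0.12 and 0.18 in SW480 vector cells, against 0.66 and 0.59 in parental HT29. For GAPDH it was 0.14 and 0.15, against 0.24 and 0.15. The part of RNA integrity in the line differences was not tested.

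NDUFV3 had the widest gap, at 10.73 and 10.58 in SW480 vector cells, against 8.63 and 8.58 in parental HT29 (log2 change 2.05 ± 0.12, 4.14-fold, limma adjusted p = 3.5e-07). The second, dimmer NDUFV3 probe set was also called higher in a fit over all probe sets, but by 0.58. In the same matrix arm NDUFA12, an N module subunit, was at 12.50 and 12.43 in SW480 vector cells, against 11.28 and 11.09 in HT29 (1.27 ± 0.13, limma adjusted p = 1.7e-05). NDUFS4 lay the other way, at 8.84 and 8.82 in SW480 vector cells, against 10.35 and 10.23 in HT29 (-1.46 ± 0.12, limma adjusted p = 5e-06). NDUFB8 and NDUFB9, both of the distal membrane arm, were lower by 1.28 and 1.16 on the log2 scale (limma adjusted p = 2.2e-05 and 3.8e-05). Genes of complex I went both ways, 9 higher (27.3%) and 7 lower (21.2%), near the 22.6% and 23.5% of all genes. Their median change was 0.09, against 0.07 over all genes.

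Complex III split as well. UQCRC1 was at 11.84 and 11.69 in SW480 vector cells, against 10.78 and 10.72 in HT29 (1.02 ± 0.12, limma adjusted p = 6.2e-05). Its partner core protein UQCRC2 was at 10.07 and 9.92 in SW480 vector cells, against 11.28 and 11.43 in HT29 (-1.36 ± 0.13, limma adjusted p = 1.3e-05). Of the 3 UQCRC2 probe sets, 2 were called lower and the dimmest was called higher, by 0.60. In complex II, SDHA was lower by 0.83 (limma adjusted p = 0.00076) and SDHC higher by 0.86 (limma adjusted p = 0.00036). SDHC's 7 probe sets disagreed, however, with calls in both directions between -2.54 and 1.28, and their mean changed by -0.08.

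Of the 11 common subunits of complex IV, 7 were lower in SW480 vector cells (63.6%, where 23.5% of all genes were) and none higher, with a median change of -0.61. Both vector arrays lay below both HT29 arrays for 9 of the 11, where 32.6% of all genes did so, and above them for 0 of the 11, where 39.6% did. The 7 were COX7C, COX7A2L, COX7A2, COX5A, COX6C, COX4I1 and COX6A1. COX7A2 was at 11.49 and 11.42 in SW480 vector cells, against 12.22 and 12.18 in HT29 (-0.75 ± 0.12, limma adjusted p = 0.00045). COX4I1 was at 11.88 and 11.81 in SW480 vector cells, against 12.47 and 12.43 in HT29 (-0.61 ± 0.12, limma adjusted p = 0.0017). COX8A, at 12.57 and 12.63 in SW480 vector cells and 12.67 and 12.22 in HT29, did not pass. The restricted isoform COX8C passed with a change of 0.53 but lay below the median of every array.

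In complex V, ATP5MC1 was at 11.08 and 10.99 in SW480 vector cells, against 9.83 and 9.47 in HT29 (1.39 ± 0.15, 2.61-fold, limma adjusted p = 2.8e-05). ATP5MC2, which encodes the same mature protein, was at 11.21 and 11.13 in SW480 vector cells, against 11.68 and 11.85 in HT29 (-0.59 ± 0.15, limma adjusted p = 0.0077). ATP5IF1 was lower by 0.73 (limma adjusted p = 0.00078), but its dimmest probe set was called higher by 0.60. ATP5F1B was higher by 0.52, and ATP5F1A and ATP5F1C lower by 0.37 and 0.57 on the log2 scale, all 3 past the threshold. The call of ATP5MF, higher by 0.41 (limma adjusted p = 0.049), rests on its dim probe set. In a fit over all probe sets that probe set did not pass (limma adjusted p = 0.057).

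The genes called in cells labelled Snail can be set beside these line differences, both of which contain the vector arrays. UQCRC2 changed by 0.67 in cells labelled Snail and -1.36 between the lines, COX7C by 0.54 and -1.17, NDUFS1 by 0.52 and -0.57, COX7A2L by 0.47 and -0.87, UQCRB by 0.45 and -0.91, and COX6C by 0.42 and -0.69. ATP5MC1 changed by -0.82 in cells labelled Snail and 1.39 between the lines. ATP5F1D changed by -0.49 and -0.05. With these shared arrays, no result is drawn from the signs.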

How the data were processed

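Total RNA of 8 samples was measured on arrays of 54675 probe sets. The authors deposited log2 values, and RMA is the method that the submitters' processing notes name for them. Its version is not given in the sources used here. RMA makes the arrays' distributions alike, so a shift shared by most genes would be removed. Probe sets were named through the platform annotation: 41091 named 1 gene, 1801 several, 11721 none, and 62 were controls. The 41037 matched Entrez identifiers changed 0 symbols in RefSeq's GRCh38.p14 table. Of several probe sets naming 1 gene, the brightest by mean over 8 arrays was used (44 of the 78 genes had several), and many subunit genes have processed pseudogenes that a probe set may also read. By the naming rule, 5 pseudogenes or noncoding genes were left out.

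Group means were fitted with limma 3.58.1 in R 4.3.3 to all 8 arrays (4 residual and 6.1 prior degrees of freedom, two-sided, threshold 0.05), checked on simulated data. An exact permutation test of 2 arrays against 2 cannot go below 0.333 and was not used. The subunit genes, the service lists and their roles were chosen with earlier results of these data known. Named were the core subunits, restricted isoforms and ATP5IF1, the largest changes per complex and comparison, and genes whose probe sets disagreed; other subunit genes and list genes named in the text were chosen after their values were seen. Alternatives were the mean of probe sets, dropping the dimmest 40% of genes, quantile normalization, median centring, array weights, trended robust eBayes, each line alone, a replicate block, a 2-fold threshold and leaving out each array. The number of arrays limits the precision, and no measure of detection was used.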

Additional observations from a re-analysis of the deposited data

Results flagged for a closer look

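COX7A2L and COX7C were called in opposite directions in the sphere and the Snail comparison, and the difference of the changes was itself past the threshold. For COX7A2L the difference was -1.05 and for COX7C -0.94 on the log2 scale. The difference kept its call for both genes in all 15 alternatives run without a fold threshold, and the COX7C difference was under 2-fold. The COX7C change in spheres alone was lost in 11 of 16 alternatives, and the Snail change of each gene was lost whenever 1 of the 4 SW480 arrays was left out. The cause was not tested.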

How the results depend on the processing

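The sphere comparison had 1 subunit gene higher and 18 lower with a median of -0.13. Median centring gave 4 higher, a median of -0.01, 15 calls of the difference between the 2 comparisons and a median difference of -0.06. Trended robust eBayes gave 4 higher in spheres and 13 higher and 4 lower in cells labelled Snail. Array weights gave 10 higher and 4 lower in cells labelled Snail. Without the dimmest 40% of genes, spheres had 3 higher and 24 lower, where 19.1% and 31.5% of the genes kept were, and a median of -0.19. At that setting cells labelled Snail had 4 lower, and SW480 vector against parental HT29 had a median of -0.10. The mean of probe sets gave a median difference of -0.11. It also reversed COX7B in spheres to -0.65 and in the difference to -0.59, NDUFA10 in spheres to 0.08 and in the difference to 0.02, NDUFS1 in cells labelled Snail to -0.11 and SDHC between the lines to -0.08, since dim probe sets then count as much as bright ones. Requiring a 2-fold change as well left 0 higher and 0 lower in spheres, 0 and 0 in cells labelled Snail, 4 and 5 between the lines, and 2 in the difference.

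Leaving out single arrays gave 8 to 19 lower and 1 to 1 higher in spheres (median -0.17 to -0.13), 0 to 8 higher and 1 to 4 lower in cells labelled Snail (median 0.03 to 0.07), 14 to 18 higher and 20 to 24 lower between the lines (median -0.11 to -0.01), and 11 to 22 calls of the difference (median -0.25 to -0.16). A lone array was then assumed to vary like the other groups.

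Same-numbered arrays of a line deviated from their group means with correlations of 0.0321 in HT29 and -0.0341 in SW480, so the numbers were not taken to pair them. With the replicate block, spheres had 1 higher and 15 lower (median -0.13), cells labelled Snail 4 higher and 2 lower (median 0.03), the lines 17 higher and 23 lower (median -0.05), and the difference 21 calls (median -0.20). Of the named genes called, 7 of 12 in spheres, 1 of 7 in cells labelled Snail, 19 of 27 between the lines and 6 of 18 in the difference kept their call in every alternative without a fold threshold. The cause of the other losses was not tested.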
